A study of Homo sapiens with 15 samples.

Results

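The 427 regions described here are the MPP8 peaks of K-562 cells that lack TASOR. They are every row of the deposited broad-peak list of that library, with no selection, and they make up 427 of the 691 peaks in the 2 lists used. K-562 is a leukaemia cell line, labelled a human lymphoblast. Per the labels, the TASOR KO cells came from CRISPR/Cas9 plasmid transfection and sorting into single colonies, so each line is a clone, and cells of the series were afterwards transduced with lentivirus carrying an empty puromycin vector or a tagged transgene. The title of this library names no transgene. Chromatin was precipitated with an antibody to MPP8. The comparison list, used where it shows a difference, held 264 MPP8 peaks of TASOR2 KO cells made in the same way. Each genotype had 1 library, so there was no replicate error and no test across samples. All intervals below are 95% intervals for counting error, which treat peaks or genes as independent, and depth is unknown.

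MPP8 has a chromodomain that binds histone H3 methylated at lysine 9. With periphilin and the scaffold TASOR it forms the human silencing hub (HUSH), which represses young LINE-1 elements, integrated retroviral DNA and other intronless transcription units, and TASOR2 is a paralog of the scaffold. Zinc finger genes of the ZNF family lie in tandem clusters, many of them on chromosome 19, and their 3′ parts are known to carry the same histone mark. Interferon-stimulated genes encode antiviral proteins, and many have an interferon-stimulated response element (ISRE) in the promoter, to which interferon regulatory factors bind.

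Peaks of this list often lay across promoters, and the promoters differed in sequence by gene class. The 250 bases before the RefSeq start (GRCh38.p14, 5′ to 3′ on the gene's strand) are shown for 8 genes whose promoter window lay wholly inside a peak and met no other gene: the 5 interferon or antigen presentation genes with the strongest peaks among those with the motif described next, TASOR2, and the zinc finger genes with the strongest and the widest start peaks. Capitals mark each match to the ISRE core GAAANNGAAA or to its other strand TTTCNNTTTC. The helicase gene DDX60 had 2 matches, 44 and 79 bases before the start, and its neighbour DDX60L had 2, at 41 and 71. TAP2 (a peptide transporter subunit) had 1 at 49, NMI (an interferon-induced protein) 1 at 154 and SAMD9 (an antiviral factor) 1 at 127. TASOR2 had 1 at 50. ZNF200 and ZNF578 had none in these windows. The immune genes shown were picked for having the motif. A promoter of FAM111A, the immune gene with the strongest peak (rank 4), met the same conditions and held no match. The same was true of THADA (rank 3), a gene of neither class, named after its values were seen. Over all promoters of that kind, counting 1 per gene, the 250 bases held a match in 9 of 17 immune genes, in 0 of 22 zinc finger genes and in 2 of 13 others.
DDX60, chr4:168318753-168319002, minus strand: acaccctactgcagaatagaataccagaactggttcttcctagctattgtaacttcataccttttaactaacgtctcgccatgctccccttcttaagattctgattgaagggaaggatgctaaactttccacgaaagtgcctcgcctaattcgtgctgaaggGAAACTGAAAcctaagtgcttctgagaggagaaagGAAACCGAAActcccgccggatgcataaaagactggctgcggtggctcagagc
DDX60L, chr4:168480493-168480742, minus strand: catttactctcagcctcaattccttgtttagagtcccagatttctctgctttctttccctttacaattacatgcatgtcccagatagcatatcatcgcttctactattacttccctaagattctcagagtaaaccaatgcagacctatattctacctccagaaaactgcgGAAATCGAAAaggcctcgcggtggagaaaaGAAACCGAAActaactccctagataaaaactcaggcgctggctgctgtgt
TAP2, chr6:32838740-32838989, minus strand: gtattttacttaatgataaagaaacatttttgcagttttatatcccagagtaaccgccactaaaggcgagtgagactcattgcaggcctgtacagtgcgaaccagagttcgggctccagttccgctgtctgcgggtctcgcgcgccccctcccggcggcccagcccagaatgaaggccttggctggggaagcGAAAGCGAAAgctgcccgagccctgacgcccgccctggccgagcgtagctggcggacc
NMI, chr2:151289669-151289918, minus strand: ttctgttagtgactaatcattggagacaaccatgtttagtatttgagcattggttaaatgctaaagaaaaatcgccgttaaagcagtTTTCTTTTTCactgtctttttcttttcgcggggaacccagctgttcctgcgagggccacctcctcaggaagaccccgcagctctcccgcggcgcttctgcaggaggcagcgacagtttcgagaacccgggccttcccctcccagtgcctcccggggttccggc
SAMD9, chr7:93117980-93118229, minus strand: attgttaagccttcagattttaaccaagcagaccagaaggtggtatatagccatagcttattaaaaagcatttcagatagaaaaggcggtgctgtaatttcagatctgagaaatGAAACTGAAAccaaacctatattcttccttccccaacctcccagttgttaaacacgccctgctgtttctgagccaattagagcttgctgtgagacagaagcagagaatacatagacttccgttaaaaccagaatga
TASOR2, chr10:5684588-5684837, plus strand: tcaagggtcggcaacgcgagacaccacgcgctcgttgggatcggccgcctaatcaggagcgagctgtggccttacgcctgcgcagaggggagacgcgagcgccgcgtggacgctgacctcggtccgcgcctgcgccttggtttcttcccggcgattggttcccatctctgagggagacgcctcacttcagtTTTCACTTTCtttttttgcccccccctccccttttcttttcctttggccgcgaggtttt
ZNF200, chr16:3235159-3235408, minus strand: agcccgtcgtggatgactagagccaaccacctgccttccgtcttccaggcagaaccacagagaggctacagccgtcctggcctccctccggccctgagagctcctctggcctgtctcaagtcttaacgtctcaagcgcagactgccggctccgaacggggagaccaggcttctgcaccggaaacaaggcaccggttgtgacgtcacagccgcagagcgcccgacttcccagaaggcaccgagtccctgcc
ZNF578, chr19:52453303-52453552, plus strand: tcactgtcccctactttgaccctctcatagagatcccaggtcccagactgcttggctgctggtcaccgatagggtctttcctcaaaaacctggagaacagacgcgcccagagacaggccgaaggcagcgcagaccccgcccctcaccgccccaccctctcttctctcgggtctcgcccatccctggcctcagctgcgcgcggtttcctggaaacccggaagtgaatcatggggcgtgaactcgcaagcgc

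The share of promoters with the core was counted over all listed windows of 300 bases, from 250 before to 50 after the start. Of 22199 windows of protein-coding genes, 703 (3.17%, exact interval 2.94 to 3.41) held it. Of the 100 windows that lay wholly inside a TASOR KO peak, 27 did (27.0%, 18.6 to 36.8). Most of those 27 belonged to the immune gene lists (interferon-stimulated, antigen presentation and butyrophilin genes), in which 21 of 30 windows inside a peak held the core (70.0%, 50.6 to 85.3). Immune-list windows not wholly inside a peak, some of them partly covered, held it in 49 of 139 (35.3%, 27.3 to 43.8). Zinc finger windows held it rarely in both settings, 1 of 36 inside a peak (2.78%) and 14 of 601 not wholly inside one (2.33%). The other 5 windows belonged to CCNT2, TBC1D32, TASOR2 and PATL2, named after their values were seen. Some windows share bases, because a gene can have several starts and gene pairs can share a promoter.

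Another pattern, the gamma-activated site TTCNNNGAA (a palindrome, which can share its GAA with the ISRE core), was distributed otherwise. It was present in 6.79% of all windows and in 11 of 36 zinc finger windows inside a peak (30.6%, 16.3 to 48.1), against 10.1% of zinc finger windows not wholly inside one (7.85 to 12.8). In immune-list windows it stood in 16.7% inside peaks and in 16.5% of the rest. The TATA pattern TATAAA (other strand TTTATA) stood in 7 of 100 windows inside a peak and in 9.47% of all windows. Median GC content was 52.0% in immune-list windows inside a peak, 58% in zinc finger windows and 63.3% in the remaining windows inside a peak, against 62.3% over all windows. A match describes letters in a window and is no evidence of a bound factor.

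The peaks were broad and mostly weak. Width ran from 504 to 17390 bp with a median of 1929 bp (order-statistic interval 1769 to 2044) and quartiles of 1189.5 and 3206.5 bp. Fewer than 1 kb was covered by 84 peaks (19.7%), and 10 (2.34%) were wider than 10 kb. The fold enrichment and q printed for a peak are the authors' own values, and peaks were ranked by their −log10 q. The authors' q was at most 0.05 for 138 peaks (32.3%). The peaks carry running numbers with gaps, from 1612 to 13397, so the 427 amount to 3.19% of the highest number. In the TASOR2 KO list the numbers run from 1 to 1512, and its 264 peaks amount to 17.5% of the highest. The highest q was 0.460 in the TASOR KO list and 0.258 in the TASOR2 KO list. The 2 lists thus reach down to unlike strengths, which bears on every comparison of them below. Chromosomes 1, 13 and Y had no peak in the list, which under such numbering is not an absence of binding.

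Peaks near transcription starts set this list apart from the other. Of the 427 peaks, 103 (24.1%, 20.1 to 28.5) lay within 1 kb of a listed start of a protein-coding gene, and 90 covered one. Of the 264 TASOR2 KO peaks, 1 did (0.379%, 0.00959 to 2.09). The odds ratio between the lists was 83.4 (exact conditional interval 14.4 to 3346). At 3′ ends the order was opposite, with 15 TASOR KO peaks (3.51%) and 31 TASOR2 KO peaks (11.7%) within 1 kb, an odds ratio of 0.274 (0.135 to 0.536). Starts were listed for 79.1% of protein-coding genes and for none on chromosome 8. The running numbers of both lists have gaps and their highest q differed (above). A difference of genotype and a difference in how the lists were selected therefore cannot be told apart.

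Start peaks were also among the stronger of the list. The q was at most 0.05 for 58 of the 103 (56.3%, 46.2 to 66.1) and for 80 of the other 324 (24.7%, 20.1 to 29.8). Their widths had overlapping intervals, with medians of 2042 bp (1528 to 2840) and 1905 bp (1748 to 2039). In all, 113 genes had a listed start within 1 kb of a peak, which is 0.713% of the 15843 genes with one. Of these, 41 were zinc finger genes, 29 belonged to the immune lists and 43 to neither.

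**Figure D1:**
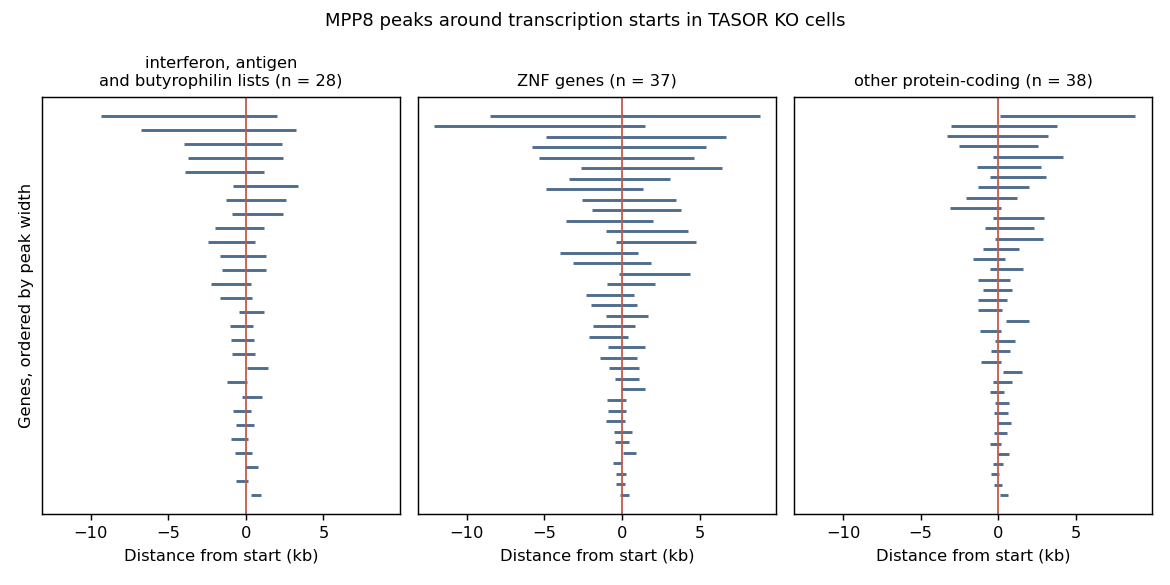
Each line is the strongest peak of 1 gene, plotted by distance from the listed start in kb (vertical line, upstream to the left), with genes ordered by peak width; the panels hold 28 immune-list, 37 ZNF and 38 other genes with a peak in the body and within 1 kb of the start. The lines straddle the start in 26 of the 28 immune and 36 of the 37 ZNF genes.

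Where a peak met an immune gene, the strongest one nearly always lay at the start. Of the 31 immune-list genes with both a peak in the body and a listed start, 28 had their strongest peak within 1 kb of that start (90.3%, 74.2 to 98.0). Among 52 such ZNF genes the number was 37 (71.2%, 56.9 to 82.9), while in 6 the strongest peak was near the 3′ end but not the start and in 9 it was near neither. Among 99 genes of neither class it was 38 (38.4%), and in 60 (60.6%) the strongest peak was near neither end. These classes differed in gene length, with medians of 19199 bp (immune), 24436.5 bp (ZNF) and 137451 bp (neither). The shares were not adjusted for length, so they are not comparable between classes. Strongest peaks that covered an immune start reached a median of 1115.5 bp upstream (854 to 2004, n = 26) and 886.5 bp downstream (456 to 1292), and 6 of the 26 reached further into the gene than away from it. At the 36 covered ZNF starts the medians were 1231.5 and 1400.5 bp, and 16 reached further into the gene.

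The interferon-stimulated genes with the strongest peaks were FAM111A, HERC6, DDX60 and DDX60L. FAM111A, a protease that restricts viral replication (gene ID 63901), had a peak of rank 4 that reached from 871 bp before to 2371 bp after its start (chr11:59141985-59145227, fold 6.40). HERC6, a ubiquitin ligase (55008), had a narrow one of 824 bp and rank 5, almost entirely after the start (chr4:88378793-88379616, fold 6.57, a value that 1 other peak shared as the highest of the list). DDX60, a helicase of the antiviral response (55601), and DDX60L (91351) had separate peaks of 2042 bp (rank 9, fold 6.24) and 5131 bp (rank 15, fold 5.95) over their starts. These were the 4 strongest of the 27 interferon-stimulated genes met.

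Next in strength were SP110, APOL2, NMI, SAMD9 and SP140L. A single peak of 2840 bp (rank 33, fold 5.23) covered the start of SP110, a nuclear body protein, and lay 4195 bp from the listed start of SP140 on the other strand, so the pair counts as 2 genes on 1 peak. APOL2, an apolipoprotein L, carried a 5769 bp peak (rank 39, fold 4.60) but has no listed start. The NMI peak (rank 51, fold 4.54) reached 3381 bp into the gene. SAMD9 had the widest peak of the immune genes, 11327 bp (rank 58, fold 4.39), of which 9315 bp lay upstream of the start, and its neighbour SAMD9L had a 6314 bp peak of rank 194. The SP140L peak measured 6077 bp (rank 69, fold 4.48).

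The antigen presentation genes met were TAP1 and TAP2, the 2 subunits of the peptide transporter, PSMB8 and PSMB9 of the immunoproteasome, the peptidases ERAP1 and ERAP2, and B2M, the light chain of MHC class I. TAP2 (gene ID 6891) had the strongest, 1468 bp wide (rank 13, fold 4.67). TAP1 and PSMB9 start back to back and shared 1 peak of 1484 bp (rank 150, fold 3.19), and PSMB8 had one of 1214 bp (rank 262). These 3 peaks stood within 16.6 kb. A 2991 bp peak over the start of ERAP2 (rank 111) also lay inside the annotated body of ERAP1, 60141 bp from its listed start. ERAP1 had another peak of its own, 1937 bp wide (chr5:96807475-96809411, rank 125), within 1 kb of a listed start. The B2M peak was among the weakest (rank 404, fold 2.91). The butyrophilin genes BTN3A2, BTN2A1 and BTN3A3, whose products take part in phosphoantigen sensing by gamma delta T cells, had peaks of ranks 163, 182 and 301. Those of BTN3A2 and BTN3A3 covered the start, and that of BTN2A1 lay 14831 bp inside.

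Set against all genes, the classes met were few. A peak overlapped the body of 216 of 20037 protein-coding genes, or 1.08%. The share was 22% of interferon-stimulated genes (27 of 123, interval 15 to 30.3), 19.4% of antigen presentation genes (7 of 36) and 11.6% of ZNF genes (59 of 510, 8.92 to 14.7). These counts rest on overlaps of 1 bp or more, often by peaks that straddle a start: with at least 50% of the peak in the gene, 15 interferon-stimulated and 38 ZNF genes were met. All coding genes were not counted under that rule. Outside the zinc finger and immune lists the share met by 1 bp or more was 0.617% (119 of 19293). The best peak had a q of 0.05 or less in 18 of the 27 interferon-stimulated and in 30 of the 59 ZNF genes. Over all 216 coding genes met it did in 99, a share near that of the ZNF genes. Of 21 genes of HUSH and its partners, TASOR2 was met, as were 2 of 32 cell cycle and centromere genes (CENPQ, a kinetochore protein, rank 11, and ESCO2, a cohesin acetyltransferase, rank 31) and 1 of 392 olfactory receptor genes (OR52N2, rank 368). No peak met the 74 histone, 53 clustered protocadherin, 40 HOX, 86 ribosomal protein or 21 erythroid genes, counts of 0 that allow shares of up to 4.86%, 6.72%, 8.81%, 4.20% and 16.1%. The lists were drawn up with earlier results on these peaks known.

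**Figure D2:**
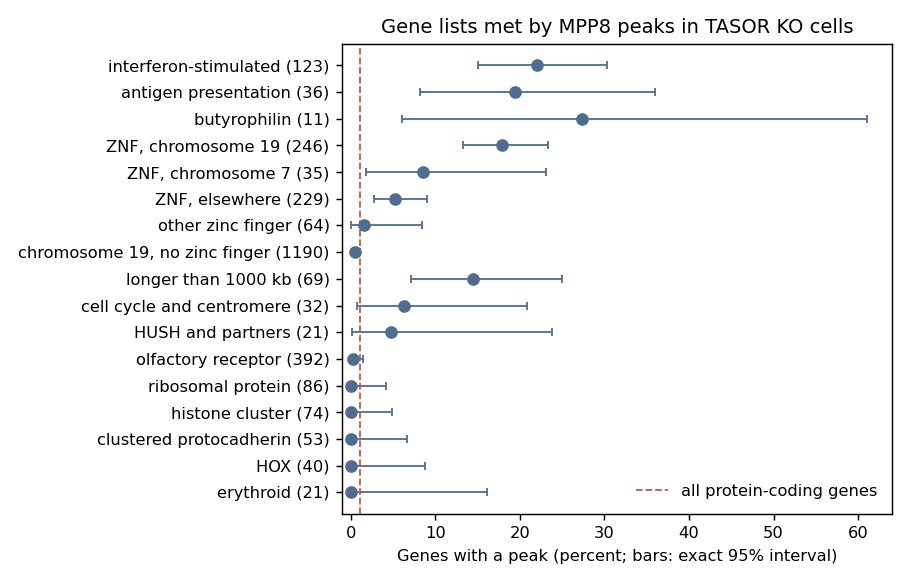
Points are the percent of genes in each list with a peak in the body, bars are exact 95% intervals, list sizes stand in parentheses, and the dashed line is the 1.08% of all protein-coding genes. Interferon-stimulated, antigen presentation, butyrophilin and chromosome 19 ZNF genes lie to the right of the line, and 5 lists stand at 0.

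The TASOR2 promoter shown above lay inside a 6821 bp peak (chr10:5681793-5688613, rank 16, fold 4.95) that reached 3045 bp upstream and 3775 bp downstream of the start. TASOR, the gene targeted in these cells, and PPHLN1 had no peak, the nearest being 11906 kb and 1839 kb away. MPHOSPH8, which encodes MPP8, is on chromosome 13, where the list had none. A peak list does not test the knockout.

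Width differed with the strength of a peak and showed no separation by place. Peaks with a q of 0.05 or less had a median width of 3089.5 bp (2661 to 3503) and those above it 1665 bp (1516 to 1824). By place, the 65 peaks in zinc finger genes had a median of 2346 bp (1534 to 3120), the 37 in immune-list genes 1946 bp (1468 to 3069), the 127 in other coding genes 1824 bp (1633 to 2051), the 65 in noncoding genes or pseudogenes alone 2025 bp (1621 to 2508) and the 133 in no annotated gene 1937 bp (1639 to 2180). These intervals overlapped. Strength varied with place: q was 0.05 or less in 20 of 37 immune peaks (54.1%, 36.9 to 70.5) and 29 of 65 zinc finger peaks (44.6%, 32.3 to 57.5), against 35 of the 133 peaks in no gene (26.3%, 19.1 to 34.7).

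The widest peaks were nonetheless concentrated in place. Of the 12 widest, from 9546 to 17390 bp, 6 lay in zinc finger genes, 2 in interferon-stimulated genes (SAMD9 and SP100, a nuclear body component) and 4 in no annotated gene. The widest of all ran across the 3′ end of ZNF534 and the start of ZNF578 (chr19:52445062-52462451, rank 8, fold 5.80). Others crossed ZNF610 and ZNF880 (15143 bp, rank 66), ZNF850 (11569 bp, rank 86), and ZNF880 and ZNF528 (11203 bp, rank 26). Another crossed the start of ZNF200 on chromosome 16 (9968 bp, rank 2). The peak at ZNF227 (13613 bp, rank 30) ran across the 5′ edge of the annotated gene. Of its length, 12113 bp lay before the listed start, which is itself inside the gene. The 4 outside genes were a peak of 11940 bp on chromosome 18 (38935777 to 38947716, rank 18), peaks of 11084 bp (43865110 to 43876193, rank 304) and 11016 bp (128375192 to 128386207, rank 1) on chromosome 8, and one of 9546 bp on chromosome 7 (114044732 to 114054277, rank 45). Rank 304, with a fold of 2.81, shows that a wide peak could be weak.

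**Figure D3:**
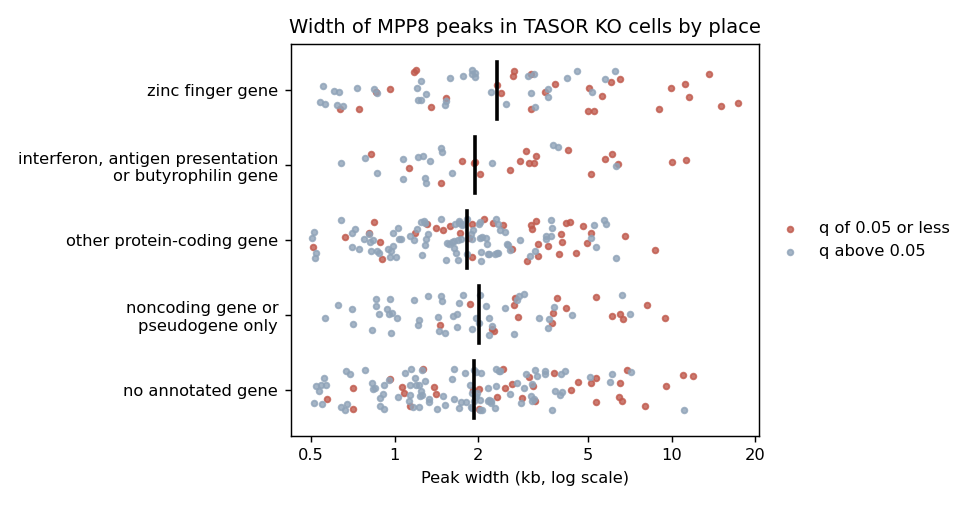
Each point is 1 of the 427 peaks, by width in kb (log scale) and place, with random vertical scatter; black bars are medians and red points have a q of 0.05 or less. Red points lie mostly to the right within each place, while the 5 medians run from 1824 to 2346 bp.

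Peaks were grouped along the chromosomes over distances well above the width of a peak. No pair lay within 1 kb of each other, 42 peaks (9.84%, 7.18 to 13.1) had a neighbour within 10 kb, 144 (33.7%, 29.2 to 38.4) within 100 kb and 282 (66.0%) within 1000 kb. The median gap to the nearest peak was 290 kb (213 to 375). By class, a neighbour within 100 kb was found for 45 of 65 zinc finger peaks (69.2%) and 24 of 37 immune peaks (64.9%), but for 30 of 127 peaks in other coding genes (23.6%) and 30 of 133 in no gene (22.6%). Both gene classes lie in clusters of related genes. Neighbours within 10 kb were less frequent than in the TASOR2 KO list (52 of 264, 19.7%), with an odds ratio of 0.445 (0.279 to 0.707). Close peaks count each other, so the 42 peaks formed 19 groups and the 52 formed 24. The intervals for neighbour shares and their odds ratios treat peaks as independent and are therefore too narrow. The lists also differ in size, which was not adjusted for. At 100 kb the odds ratio was 0.735 (0.529 to 1.02). It turned to 3.35 (1.36 to 9.45) when peaks above a q of 0.05 were left out, with 34 of 138 against 7 of 79 peaks.

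**Figure D4:**
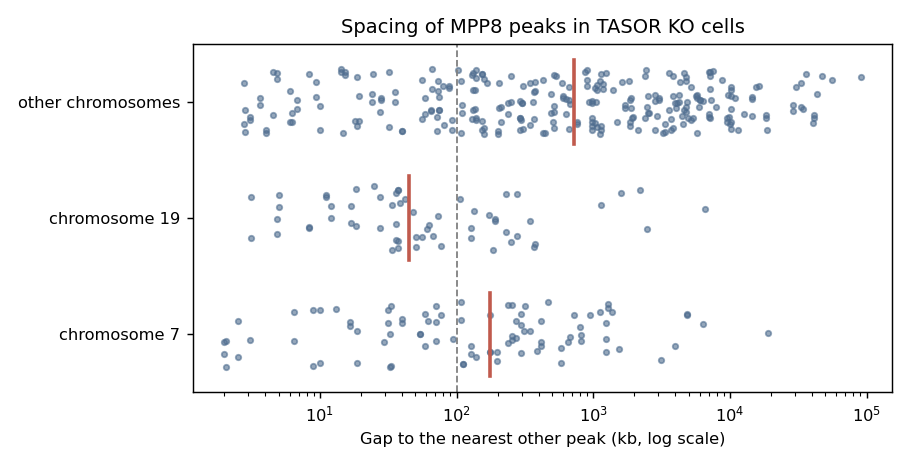
Each point is a peak, placed by the gap in kb (log scale) to the nearest other peak on its chromosome; red bars are medians and the dashed line marks 100 kb. The medians are 176 kb on chromosome 7, 44.9 kb on chromosome 19 and 723 kb on the others, and 1 peak without another on its chromosome is not drawn.

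Joining peaks less than 100 kb apart gave 49 runs of 2 or more peaks. Runs that met a zinc finger gene numbered 11 and held 53 peaks, and 10 runs with 27 peaks met an immune gene. Another 16 runs met other coding genes, and 12 met none. Of the 9 runs with 4 or more peaks, 6 met zinc finger genes, 1 met interferon-stimulated genes and 2 met no gene.

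The largest run in number, 9 peaks over 223 kb of chromosome 16 (3223516 to 3446917), met ZNF200, ZNF263, ZNF75A, TIGD7, ZSCAN32, ZNF174, ZNF597, NAA60 and LINC00921. Its peaks ranked from 2 to 232, and 5 had a q of 0.05 or less. Another run of 9 covered 382 kb of chromosome 19 (9321321 to 9703128) and met ZNF559, ZNF177, ZNF266, ZNF560, ZNF426, ZNF121, ZNF561 and the pseudogene ZNF812P, with ranks from 63 to 303. Of the chromosome 19 runs with 4 or more peaks, the most densely covered had 8 peaks in 258 kb (52269520 to 52527695), which filled 53.4 kb or 20.7% of it, across ZNF766, ZNF480, ZNF610, ZNF880, ZNF528, ZNF534, ZNF578 and ZNF808. A run of 7 in 281 kb (43933270 to 44214031) met ZNF45, ZNF230, ZNF223, ZNF224, ZNF225, ZNF226, ZNF234 and ZNF227, and 5 of its peaks had a q of 0.05 or less.

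On chromosome 10 a run of 5 peaks filled 22.6 kb of 55.9 kb (40.5%) at ZNF239, ZNF485 and ZNF32-AS3, the last with a peak of 9486 bp (rank 14, fold 5.64). The interferon-stimulated run, also of 5, lay on the same chromosome (89298785 to 89415764). It had a peak at IFIT2, IFIT1 and IFIT5 and a pair at IFIT3, genes whose products bind viral RNA, and all 5 peaks overlap the annotated span of LIPA, a lysosomal lipase gene. Their ranks ran from 70, at IFIT1 (3069 bp, fold 4.43), to 175, and 2 had a q of 0.05 or less. The runs of 4 were at ZNF577, ZNF350 and FPR3 on chromosome 19 and at 2 places without a gene on chromosome 7 (110175939 to 110267701 and 138294994 to 138430433).

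Chromosome 19 held 60 peaks (14.1%, 10.9 to 17.7) in 1.90% of the annotated span, or 1.02 per Mb. Zinc finger genes accounted for most of them, 46 of 60 (76.7%, 64.0 to 86.6), and 5 (8.33%) lay in no gene. Of the 246 ZNF genes of the chromosome 44 were met (17.9%), against 6 of its 1190 other coding genes (0.504%), which included the readthrough ZNF559-ZNF177. Elsewhere than on chromosomes 7 and 19, 12 of 229 ZNF genes were met (5.24%). The 3 chromosome 19 peaks in other coding genes alone were at SLC39A3, a zinc transporter (808 bp, rank 20, fold 5.22), UBL5, a ubiquitin-like protein (3146 bp, rank 90) and FBXL12, an F-box protein (rank 251), the last 2 named after their values were seen. The other strong zinc finger peaks were at ZNF529 (3111 bp, rank 38), ZNF229 (1534 bp, rank 54), ZNF136 (5013 bp, rank 56) and ZNF223 (962 bp, rank 61). In bins of 2 Mb the most peaks fell at 8 to 10 Mb (11 peaks, 13 ZNF genes), then at 52 to 54 Mb (9 peaks, 33 ZNF genes).

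Chromosome 7 differed from chromosome 19 in the places its peaks met. It held the most peaks, 90 (21.1%, 17.3 to 25.3), in 5.16% of the annotated span, or 0.565 per Mb, against 0.113 per Mb on all chromosomes but 7 and 19. No annotated gene was met by 41 of the 90 (45.6%, 35.0 to 56.4), zinc finger genes by 3 (3.33%) and immune genes by 5. On chromosomes other than 7 and 19 the mix was nearer. There, 87 of 277 peaks (31.4%, 26.0 to 37.2) met no gene, 16 (5.78%) a zinc finger gene and 32 (11.6%) an immune gene. The chromosome 7 peaks were weak: 13 (14.4%, 7.92 to 23.4) had a q of 0.05 or less. On chromosome 19 it was 21 of 60 (35.0%, 23.1 to 48.4) and elsewhere 104 of 277 (37.5%, 31.8 to 43.5). The median width on chromosome 7, 1951.5 bp (1621 to 2232), was close to the others' 1937 bp. In the TASOR2 KO list chromosome 7 held 44 of 264 peaks (16.7%), and the odds ratio between the lists was 1.33 (0.883 to 2.04). That ratio took in peaks of every strength. For the stronger peaks the order was opposite, a difference that was not tested. Chromosome 7 held 13 of the 138 TASOR KO peaks that reached a q of 0.05 (9.42%), but 14 of the 79 such TASOR2 KO peaks. The chromosome also took up a large part of the running numbers, 1785 or 13.3% of the highest one, of which 5.04% were kept, against 20.9% on chromosome 19 and 1.73% to 4.98% on the other 6 chromosomes with 20 or more peaks. What this numbering has to do with the count was not tested.

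**Figure D5:**
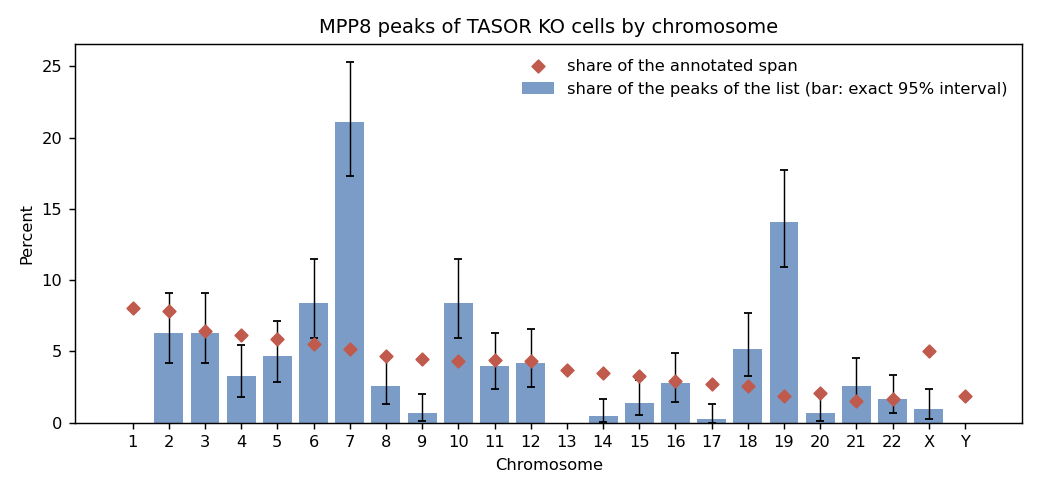
Bars give the percent of the 427 peaks on each chromosome with exact 95% intervals, and diamonds give the percent of the annotated span. Chromosomes 7 (21.1%) and 19 (14.1%) stand above their diamonds (5.16% and 1.90%).

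Many of the chromosome 7 peaks stood in a single stretch, from 105 to 125 Mb, the longest row of adjacent 5-Mb bins with 5 or more peaks each, a rule chosen after the values were seen. It held 39 of 90 (43.3%) in 12.6% of the chromosome's span, or 1.95 per Mb against 0.366 per Mb on the rest. Of these, 22 lay in no gene, 8 of the 81 coding genes of the stretch were met, and 3 peaks had a q of 0.05 or less. The TASOR2 KO list had 11 of its 44 chromosome 7 peaks there. The odds ratio of 2.31 (1.13 to 5.1), over all peaks of each list, describes a stretch picked for its count in TASOR KO. The strongest peaks of the chromosome lay outside genes, at 43830149 to 43836662 (6514 bp, rank 27, fold 4.95) and 139111627 to 139112709 (1083 bp, rank 29, fold 4.56), then at 116509639 to 116513983 (rank 42). Those in genes were at CALN1, a neuronal calcium-binding protein (3925 bp, rank 50, fold 4.48), 465847 bp from its start, at SAMD9, and across CYREN, a regulator of DNA end joining, and TMEM140 (2606 bp, rank 80). The rank 29 peak, although in no gene, lay upstream of the interferon-stimulated gene ZC3HAV1, named after its values were seen. A weaker peak at the start of ZC3HAV1 was its neighbour within 10 kb, in the same run.

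Some very long genes held several weak peaks. Of 69 coding genes longer than 1000 kb, 10 were met (14.5%). None of the 57 with a listed start had a peak near it, a 0 that allows a share of up to 6.27%. Over all coding genes with a listed start that share was 0.713%, so the 0 does not set long genes apart. Genes over 500 kb were met in 21 of 315 cases (6.67%). They held 43 peaks (10.1%) in 8.49% of the annotated span, and those over 1000 kb held 24 (5.62%) in 3.10%. CNTNAP2, a neuronal adhesion gene of 2304 kb on chromosome 7, carried the most with 9 peaks, and none of the 9 reached a q of 0.05 (0.133 to 0.395). It had 3.91 peaks per Mb, against 0.565 per Mb on chromosome 7 and 0.160 per Mb over the whole list. Its peaks were 1054 to 5340 bp wide and the best ranked 192. NRG3, a neuregulin gene, had 4 peaks, and PTPRN2, a receptor phosphatase gene, and FOXP2, a transcription factor gene, had 3 each. GRM7 (880 kb, chromosome 3) and PTPRM (840 kb, chromosome 18) also had 3 each. Of the peaks in all these long genes, 1, in PTPRN2, reached a q of 0.05 (0.0174). These long genes were named after their values were seen.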

How the data were processed

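MPP8 ChIP-seq peak lists of 2 K-562 samples, TASOR KO and TASOR2 KO (1 library each, grouped by title), were used; the other 13 of 15 samples were not used here. Per the labels' protocols, cells were fixed with 1% formaldehyde for 10 min, and 80 µg of chromatin, cut with micrococcal nuclease and by sonication, received a mouse spike-in at 1 part in 40. The submitters' processing notes list deepTools, MACS2 and Bowtie2 (2.3.5.1) and the builds mm9 and hg38. Which library served as control, at what threshold peaks were called and whether the spike-in was used are not stated there. The deposited lists have 9 columns in MACS2's broad-peak order: a score, the fold enrichment (a ratio) and −log10 p and −log10 q, all the authors' values per peak. The deposited score was the whole part of 10 times the −log10 q in all 427 peaks. The basis on which peaks were kept from the longer numbering is likewise not stated.

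Coordinates are 1-based on hg38. Gene bodies came from a RefSeq table of GRCh38.p14 (20037 protein-coding genes), and starts, strands and promoter sequences from a RefSeq promoter table that matched 15843 of them and 183 of the 216 with a peak. A gene was met where a peak overlapped it by 1 bp. A listed start within 1 kb counted as near. Exons, repeats and LINE-1 were not analysed here. Shares carry exact (Clopper-Pearson) 95% intervals, medians order-statistic intervals, and lists were compared by conditional odds ratios, with no p-value. The scripts were tested on simulated data. The members, gene lists and tests were chosen with earlier results of these data known. Genes named were those met by the 12 widest peaks, the 8 runs with the most peaks, the 8 strongest peaks on chromosomes 7 and 19, up to 10 per list, and the HUSH genes; any other gene is marked as picked with its values in view. Alternatives were q of 0.05 or less, the higher-scoring part of the list, leaving out chromosome 7 or 19, other distances, and other overlap rules. Software was scipy 1.17.1, pandas 2.3.3, numpy 2.4.6 and matplotlib 3.10.9 under Python 3.11.15.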

Additional observations from a re-analysis of the deposited data

How the results depend on the processing

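Of 55 alternative values over 11 results, 30 kept to the reported value and 25 did not, and the cause was not tested. A share or median kept to it within the reported interval, and a count within 1.5 times. An odds ratio had to stay on its side of 1, with an interval that included or excluded 1 as the reported one did. With peaks of q 0.05 or less, the share with a neighbour within 100 kb was 24.6%, the median width 3089.5 bp (3503 bp in zinc finger genes, 2876 bp in no gene), the share on chromosome 7 9.42%, the ZNF genes met 30, and the share near a start 42.0%. With the 213 highest-scoring peaks, the neighbour share was 28.6%, the median width 2464 bp (2559 bp in no gene), the chromosome 7 share 12.7% and the start share 34.7%. Without chromosome 19, the neighbour share was 28.6%, the start share 19.6% and the ZNF genes 15; without chromosome 7, the chromosome 19 share was 17.8% and the start share 28.5%. The neighbour share was 9.84% at 10 kb and 57.4% at 500 kb. Where at least 50% of a peak had to lie in the gene, 38 ZNF and 15 interferon-stimulated genes were met. The odds ratio of the neighbour share between the lists changed sides, from 0.735 to 3.35 with q of 0.05 or less, 1.20 with the higher-scoring peaks and 1.01 at 500 kb, and at 10 kb it was 0.445. The odds ratio of the start share stayed above 1 in the 4 alternatives that gave one (7.36 to 69.3, chosen after seeing the data); without chromosome 7 it had no finite value, as 0 of 220 TASOR2 KO peaks lay near a start. No paired analysis was possible because there was a single library of each genotype, which also prevented leaving one out. Depth is unknown, so how it limits weak peaks could not be assessed.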
